A study of Mus musculus with 15 samples.

Results

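The genes described here are 49 muscle and contractile genes of the mouse, chosen by symbol from 12254 genes named on the arrays. They are the myosin heavy and light chains, troponins, actins, alpha-actinins, tropomyosins, calponins, transgelins, leiomodins, myozenins and ryanodine receptors, with *Des*, *Mb*, *Eno3*, *Atp2a1*, *Myog* and *Myod1*. A symbol was matched to a probe through the RefSeq accession in the scanner output. The 49 genes have 68 probes, 18 of them with 2 or 3, and unless stated otherwise a gene is given by its brightest probe. Another 21 protein-coding genes of the same naming pattern, among them *Acta2*, *Myh11*, *Myl9* and the fast and embryonic myosin heavy chains *Myh1*, *Myh2*, *Myh3*, *Myh4* and *Myh8*, were not analysed here.

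Whole ovaries were profiled on 15 two-colour Agilent arrays, in newborn mice (3 arrays each of *Foxl2*-null, heterozygous and wild-type ovaries) and at 7 days postnatum (7 dpn, 2 arrays each). The 7 dpn arrays addressed the dosage of *Foxl2*, a forkhead transcription factor of the ovarian supporting cells, and the newborn arrays served mainly to compare array platforms. Labels give Foxl2-/-, Foxl2+/- and Foxl2+/+ female mice of 1 strain, NIHS-BC, and the methods describe a mixed background, separate mice for each sample and, at 7 dpn, pools of mice. Ovary RNA carried Cy3 and a universal mouse reference, a pool of 11 cell lines with a muscle myoblast line among them, carried Cy5 on every array. Values below are log2 ratios of ovary over this reference, so they compare a gene between arrays but not genes with each other. The labels themselves do not tie an array to a mouse or pool, and p-values measure the spread between these samples.

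Sarcomeric proteins build the contractile unit of skeletal and heart muscle. Myosin pulls on actin filaments, tropomyosin and the troponin complex gate that pull by calcium, and alpha-actinin anchors the filaments. Fast and slow skeletal fibres, heart and smooth muscle use different members of each family. The ovary has no skeletal muscle of its own, while smooth muscle lies around its vessels and in the theca of growing follicles, and skeletal muscle and fat are among the tissues next to it. By known role, the 49 genes fall into 24 of the skeletal and cardiac sarcomere, 5 of smooth muscle, 14 used by most cells, 4 of calcium handling, oxygen storage and glycolysis, and 2 myogenic transcription factors.

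The arrays carry 60-base probes, and those shown first belong to genes on which the results below turn. *Actn3* (chromosome 19, 4861216-4877909) is shown by its second brightest and dimmest probes because its probes moved in opposite directions, *Myl1* because it was raised on a pair of newborn wild-type arrays, and *Tnnt2*, *Tpm2* and *Actg2* because they differed between the ages. Gene positions are those of build GRCm38.p6. The place of a probe in its gene (exon or untranslated region) was not determined here.
Actn3, second brightest probe: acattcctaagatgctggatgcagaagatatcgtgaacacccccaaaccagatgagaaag
Actn3, dimmest probe: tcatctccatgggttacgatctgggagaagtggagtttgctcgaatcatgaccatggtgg
Myl1: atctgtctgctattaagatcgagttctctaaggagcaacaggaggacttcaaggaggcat
Tnnt2: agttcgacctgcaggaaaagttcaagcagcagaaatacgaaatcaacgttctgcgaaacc
Tpm2, brightest probe: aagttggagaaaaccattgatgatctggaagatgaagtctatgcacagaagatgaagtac
Actg2, brightest probe: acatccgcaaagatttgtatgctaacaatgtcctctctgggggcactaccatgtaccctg

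The second brightest *Actn3* probe shared a run of at most 16 bases with a probe of any other gene, and the brightest *Tpm2* probe a run of 14. The other probes shown shared fewer than 14.

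Promoters of a pair of members are shown because their genes gave the widest spread within a group (*Acta1*) and the clearest order by genotype (*Tnnt1*). Each is the 250 bases before the annotated start in RefSeq, build GRCm38.p6, minus strand, written 5′ to 3′. Capitals mark a CArG box, the binding sequence of serum response factor, in *Acta1* (chr8:123894776-123895025, bases -73 to -64 from the start) and an E-box, the sequence bound by myogenic and other basic helix-loop-helix factors, in *Tnnt1* (chr7:4515976-4516225, bases -158 to -153).
Acta1: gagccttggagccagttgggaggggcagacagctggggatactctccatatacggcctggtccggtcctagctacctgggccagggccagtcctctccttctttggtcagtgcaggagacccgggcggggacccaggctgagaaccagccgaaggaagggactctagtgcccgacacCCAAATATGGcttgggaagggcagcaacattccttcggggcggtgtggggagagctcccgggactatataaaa
Tnnt1: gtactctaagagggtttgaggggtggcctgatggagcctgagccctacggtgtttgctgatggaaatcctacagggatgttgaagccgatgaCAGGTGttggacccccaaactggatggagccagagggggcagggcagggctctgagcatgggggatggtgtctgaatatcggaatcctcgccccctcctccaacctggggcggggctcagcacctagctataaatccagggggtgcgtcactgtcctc

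A promoter of this length was found for 40 of the 49 genes. A CArG box on either strand stood in 7 of the 40 (*Acta1*, *Actc1*, *Actg1*, *Cnn2*, *Myl3*, *Myl6* and *Myl7*), against 1.47% of 32851 promoters. The E-box CANNTG stood in 34 of the 40, against 66.22% of all promoters, and the forkhead core TGTTTAC in 0 of the 40, against 3.17%. A gene was counted if a promoter of any of its annotated starts matched, while the shares are over single promoters. Counts and shares are therefore not like for like. These matches are descriptions of letters in these windows.

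In the ovary channel 93.2 to 96.5% of an array's probes stood well above background, and 60 of the 68 probes of the 49 genes did so on all 15 arrays. Oocyte markers (15 of 18 listed on the arrays) had mean log2 ratios from 2.91 to 3.74 on every array, so germ cells were represented in all groups. The *Foxl2* probe ranged from -0.32 to -0.18 over all arrays and did not separate the genotypes. Its position relative to the deleted sequence was not known, so it does not check the labels. The newborn arrays were feature-extracted on 1 day and the 7 dpn arrays on the next, so age and extraction day cannot be told apart. Within an age, every slide held 1 array and the extraction day was the same.

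On newborn wild-type arrays 2 and 3, *Acta1*, *Tnnc2* and *Tnni2* stood far above all other arrays. The skeletal alpha-actin *Acta1* read 4.05 and 1.73 there, 58.5-fold and 11.7-fold over the median of the 12 arrays of the other groups. On newborn wild-type array 1 it read -1.92, and the 12 other arrays lay between -2.21 and -0.34. The 3 newborn wild-type arrays therefore spanned almost the whole range of the gene, with array 1 among the low arrays.

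Fast troponin genes followed the same order. *Tnnc2*, the calcium-binding subunit of fast fibres, read -0.63 on array 1, 2.93 on array 2 and 1.27 on array 3, and the arrays of the other groups lay between -0.71 and -0.08. *Tnni2*, the inhibitory subunit of fast fibres, read -0.99, 2.30 and 0.61, with the other groups between -1.12 and -0.51. Over the median of the other groups array 2 was 11.3-fold higher for *Tnnc2* and 8.85-fold higher for *Tnni2*, and array 3 was 3.56-fold and 2.75-fold higher. *Tnnt3*, the tropomyosin-binding subunit of fast fibres, read -0.47, 0.48 and -0.16, against -0.42 to -0.23 elsewhere, and its dimmer probe gave -0.29, 1.11 and 0.24 in the same order. Both probes put array 2 highest and array 3 second.

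*Myl1*, *Actn2* and *Myoz2* were also highest on array 2 by their brightest probes. *Myl1*, the essential light chain of fast fibres, read -0.10, 1.61 and 0.29 on newborn wild-type arrays 1, 2 and 3, against -0.67 to 0.00 in the other groups. *Actn2*, an alpha-actinin of the Z-disc, read 0.12, 1.48 and 0.77, against -0.13 to 0.57, but its dimmer probe read 0.00, 0.35 and 0.05, within the -0.18 to 0.40 of the other groups. *Myoz2*, a Z-disc protein that binds calcineurin, read -0.19, 0.52 and -0.06, against -0.33 to -0.07, and its dimmer probe read -0.28, 0.46 and -0.30, with array 3 no higher than array 1. The embryonic and cardiac actin *Actc1* was raised to a like degree on both arrays, 1.39-fold on array 2 and 1.45-fold on array 3 over the median of the other groups. *Eno3*, the muscle enolase of glycolysis, read -2.10, -1.46 and -1.72, against -2.37 to -1.95 elsewhere.

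These 9 genes were the ones whose values on arrays 2 and 3 both exceeded those of the 13 other arrays, 9 of 49, while 6.83% of the named genes showed that order. They were picked out by these values, which are a description without a test. Array 2 alone was highest of the 15 arrays for 12 of the 49 genes, against 5.1% of the named genes, and 11 of the 12 belonged to the 24 sarcomere genes. *Myl10*, a regulatory light chain, was raised on array 2 only (1.71, against -0.70 on array 1 and -0.41 on array 3), and so was *Tpm1* (-0.33, against -0.97 and -0.91). *Myh6*, a cardiac heavy chain, read 0.90, 2.54 and 1.65 on arrays 1, 2 and 3, the last of them within the 0.72 to 1.85 of the other groups. The spread over the 3 newborn wild-type arrays was at least 1 log2 unit for 7 of the 49 genes, against 2.23% of the named genes, and its median was 0.335 for the 49 and 0.199 for all named genes.

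**Figure D1:**
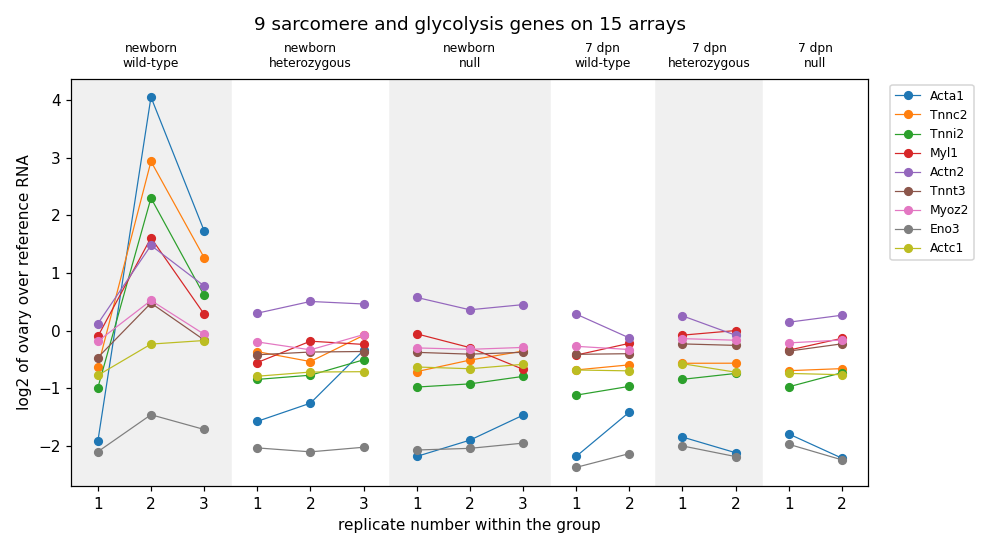
Log2 ratio of ovary over reference (vertical axis) for the 9 genes raised on newborn wild-type arrays 2 and 3, on each of the 15 arrays (horizontal axis, grouped by age and genotype), with 1 line per gene broken between groups. *Acta1* reaches 4.05 on array 2 and 1.73 on array 3, while array 1 lies at -1.92 among the other groups.

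By its brightest probe no gene of the other roles shared this order beyond *Eno3*. The order was seen for 0 of 5 smooth muscle genes, 0 of 14 genes used by most cells and 0 of 2 myogenic factors, while the dimmer probe of *Myl6b* did show it, at -0.99, 1.80 and -0.21 on arrays 1, 2 and 3 against at most -0.58 in the other groups. *Myod1*, which drives cells into the muscle lineage, stayed between -0.40 and -0.14 on all 15 arrays, and *Myog*, which drives their differentiation, between -0.92 and -0.32. The cardiac and slow light chain *Myl2* lay between -0.28 and 0.22 and the atrial light chain *Myl7* between -0.23 and 0.11, and *Ryr2*, the calcium release channel of the heart, between -0.13 and 0.07. The Z-disc genes *Myoz1* and *Myoz3* lay between -0.17 and 0.22 and between -0.30 and -0.07. The 0.22 of *Myoz1* was on newborn wild-type array 2, against at most 0.00 in the other groups. None of these genes was called in any comparison. *Mb*, the oxygen store of slow and cardiac fibres, stayed between -0.22 and -0.06, and *Atp2a1*, the calcium pump of fast fibres, between -0.22 and 0.22.

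Skeletal muscle genes outside the 49 had their highest mean on array 2, while array 3 lay within the range of the other groups. Of 46 such genes listed, 32 were on the arrays, and their mean log2 ratio was 0.03, 0.32 and 0.09 on newborn wild-type arrays 1, 2 and 3, against -0.01 to 0.13 on the other arrays. Array 2 was the highest of the 15 arrays for 10 of the 32, and its median over the 32 was 0.06, against -0.12 to 0.04 on the 14 other arrays. The newborn wild-type arrays spanned 0.08 for *Ttn*, 0.08 for *Pvalb* and 0.04 for *Mybph*, and the genes that follow had the widest spans. *Mylpf*, the regulatory light chain of fast fibres, read -0.21, 1.55 and 0.22, against -0.19 to -0.03 elsewhere. *Ckm*, the muscle creatine kinase, read -0.06, 1.06 and 0.19, and *Pgam2*, the muscle phosphoglycerate mutase, read -2.97, -0.82 and -2.42. Cardiac genes outside the 49 (11 of 15 on the arrays) had means of -0.25, -0.40 and -0.27 on these arrays, against -0.75 to -0.17 elsewhere, and genes of muscle precursors (15 of 18) had means of -0.25, -0.16 and -0.19, against -0.35 to -0.18.

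The 3 newborn wild-type arrays also differed in markers of fat. The mean of 13 of 14 listed adipose genes was 2.09 on array 1, where *Adipoq* read 3.55, and 0.13 and 0.16 on arrays 2 and 3. The other newborn arrays lay between 0.08 and 0.24 and the 7 dpn arrays between 1.15 and 1.71. The mean of granulosa and theca genes (16 of 18 on the arrays) was 1.06, 0.42 and 0.59 on arrays 1, 2 and 3. The part of muscle or fat next to the ovary in these values was not tested, and in bulk RNA more cells of a type cannot be told apart from more RNA per cell.

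**Figure D2:**
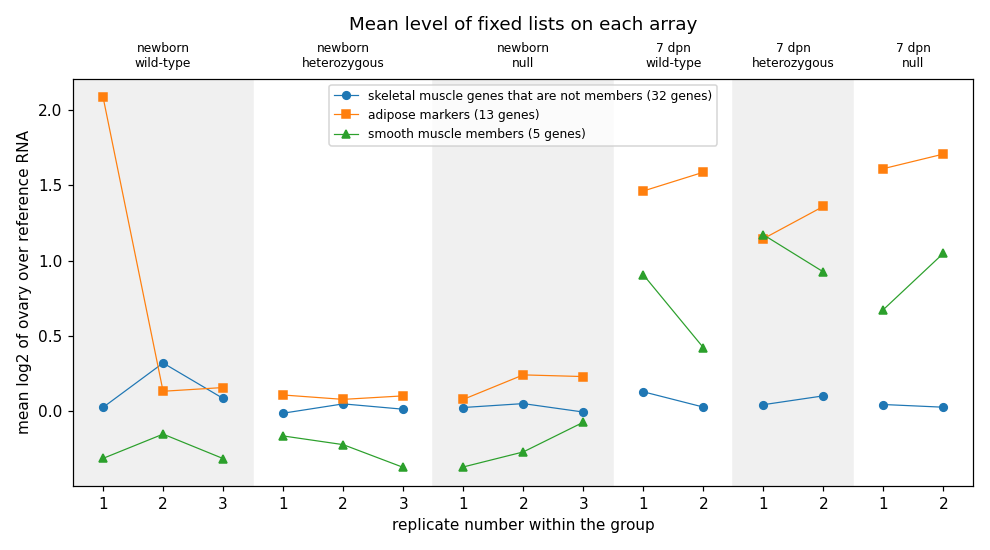
Mean log2 ratio of ovary over reference (vertical axis) on each of the 15 arrays (horizontal axis) for 32 skeletal muscle genes outside the 49, 13 adipose genes and the 5 smooth muscle genes among the 49. Skeletal muscle peaks at 0.32 on newborn wild-type array 2, adipose at 2.09 on newborn wild-type array 1, and smooth muscle separates the ages.

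Newborn comparisons of the sarcomere genes depended on these arrays. Genes were tested with limma, and a gene is called at an adjusted p under 0.05. In newborn null against wild-type ovaries 2 of the 49 were called, both higher, while 2.5% of the named genes were called (1.46% higher). Of the 24 sarcomere genes 19 were lower in null ovaries and 5 higher, with a median log2 difference of -0.24, against a median near 0 (-0.0043) over all probes. *Acta1* differed by -3.14 (SE 1.10) on the log2 scale and missed the threshold (limma, adjusted p = 0.231), as did *Tnnc2* at -1.72 (SE 0.63, adjusted p = 0.258).

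Both the count and the direction turned on which wild-type arrays were kept. Without wild-type array 1, 10 of the 49 genes were called, 7 of them lower in null ovaries, while the named genes called also rose, to 7.33% (3.45% higher and 3.88% lower). The lower genes included *Acta1* at -4.73 (limma, adjusted p = 0.00213), *Tnnc2* at -2.61 (adjusted p = 0.00310) and *Tnni2* at -2.36 (adjusted p = 0.00472). Without array 2 alone the median log2 difference of the 24 sarcomere genes was -0.03 (10 higher, 14 lower). Without array 3 alone it was -0.30 (6 higher, 18 lower). Without arrays 2 and 3, array 1 alone stood for the group and, here and below, was assumed to vary like the other groups. Then 2 were called, against 2.3% of the named genes, 16 of the 24 sarcomere genes were higher and 8 lower, and their median was 0.07. The *Acta1* difference was then 0.04 and that of *Tnnc2* 0.12. At 7 dpn, where no array stood apart in this way, *Acta1* differed by -0.20 between null and wild-type ovaries (adjusted p = 0.976).

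Heterozygous against wild-type newborn ovaries shared these wild-type arrays. With all arrays 0 of the 49 genes were called by limma, as were 0% of the named genes, and 7 of the 49 had an unadjusted p under 0.05, as had 1543 of the 12244 named genes tested. Without wild-type array 1, 6 genes were called, all lower in heterozygous ovaries (*Acta1* at -3.94, adjusted p = 0.00357), against 4.71% of the named genes (3.03% lower). Without array 2 alone the median of the 24 sarcomere genes was -0.06, and without array 3 alone -0.36. Without arrays 2 and 3, 0 were called, against 0.94%, and the median of the 24 sarcomere genes moved from -0.24 to 0.08.

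**Figure D3:**
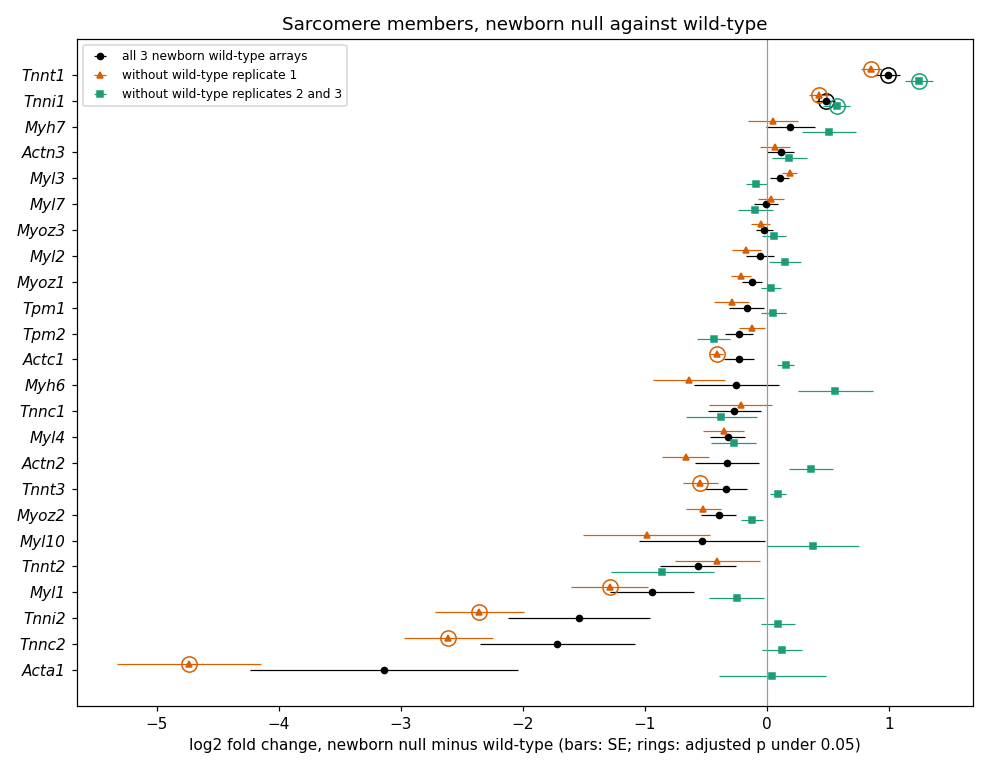
Log2 difference between newborn null and wild-type ovaries (horizontal axis, with bars of 1 SE) for the 24 sarcomere genes, fitted with all 3 wild-type arrays, without array 1 and without arrays 2 and 3, where rings mark limma adjusted p under 0.05. *Acta1* moves from -3.14 to -4.73 and to 0.04.

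*Tnnt1* and *Tnni1*, of the 3 slow troponin genes, were higher in null than wild-type ovaries at both ages. *Tnnt1*, the tropomyosin-binding subunit of slow fibres (chromosome 7, 4504569-4515975), read -0.20, 0.22 and 0.10 on the newborn wild-type arrays, 0.37, 0.52 and 0.42 on the heterozygous and 1.02, 1.03 and 1.04 on the null. At 7 dpn it read -0.49 and -0.31 in wild-type, 0.44 and 0.18 in heterozygous and 0.97 and 1.03 in null ovaries. At both ages every null array exceeded every heterozygous array, which exceeded every wild-type array. *Tnnt1* was the only one of the 49 with that order, which 0.172% of the named genes showed. The reverse order at both ages was seen for 0 of the 49, against 0.294% of the named genes.

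In the fit, *Tnnt1* was 1.98-fold higher in newborn null than wild-type ovaries (log2 0.99, SE 0.10, limma adjusted p = 0.000774) and 2.65-fold higher at 7 dpn (log2 1.41, SE 0.12, adjusted p = 0.000144). Both were called under every alternative tried. Against heterozygous ovaries the null differed by 0.59 in newborns (adjusted p = 0.0387) and by 0.69 at 7 dpn (adjusted p = 0.0162). The 7 dpn call was lost without null array 1 (adjusted p = 0.0876), null array 2 (0.149) or heterozygous array 2 (0.148), and the newborn one under most alternatives. Heterozygous against wild-type differed by 0.40 in newborns (adjusted p = 0.197) and by 0.71 at 7 dpn (adjusted p = 0.0856). The null effects at the 2 ages differed by 0.42 (adjusted p = 0.340).

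*Tnni1*, the inhibitory subunit of slow fibres (chromosome 1, 135783033-135810989), read -0.28, -0.12 and -0.14 in newborn wild-type, -0.11, -0.06 and -0.10 in heterozygous and 0.14, 0.27 and 0.49 in null ovaries. At 7 dpn the values were -0.28 and -0.24 in wild-type, -0.15 and -0.24 in heterozygous and 0.22 and 0.17 in null ovaries. All null arrays lay above all others of their age, and heterozygous and wild-type arrays lay close together. Null exceeded wild-type 1.39-fold in newborns (log2 0.48, SE 0.08, limma adjusted p = 0.0114) and 1.37-fold at 7 dpn (log2 0.45, SE 0.09, adjusted p = 0.0179). The 7 dpn call was lost without any single 7 dpn null or wild-type array (adjusted p 0.0606 to 0.117), and with the ovary channel alone the 7 dpn difference was 0.19.

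The other slow and cardiac troponin, *Tnnc1*, and the slow heavy chain *Myh7* were not called between genotypes at either age. *Tnnc1* lay between -1.64 and -0.50 over all arrays, with null arrays at -1.40, -1.37, -1.33, -1.64 and -1.64.

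**Figure D4:**
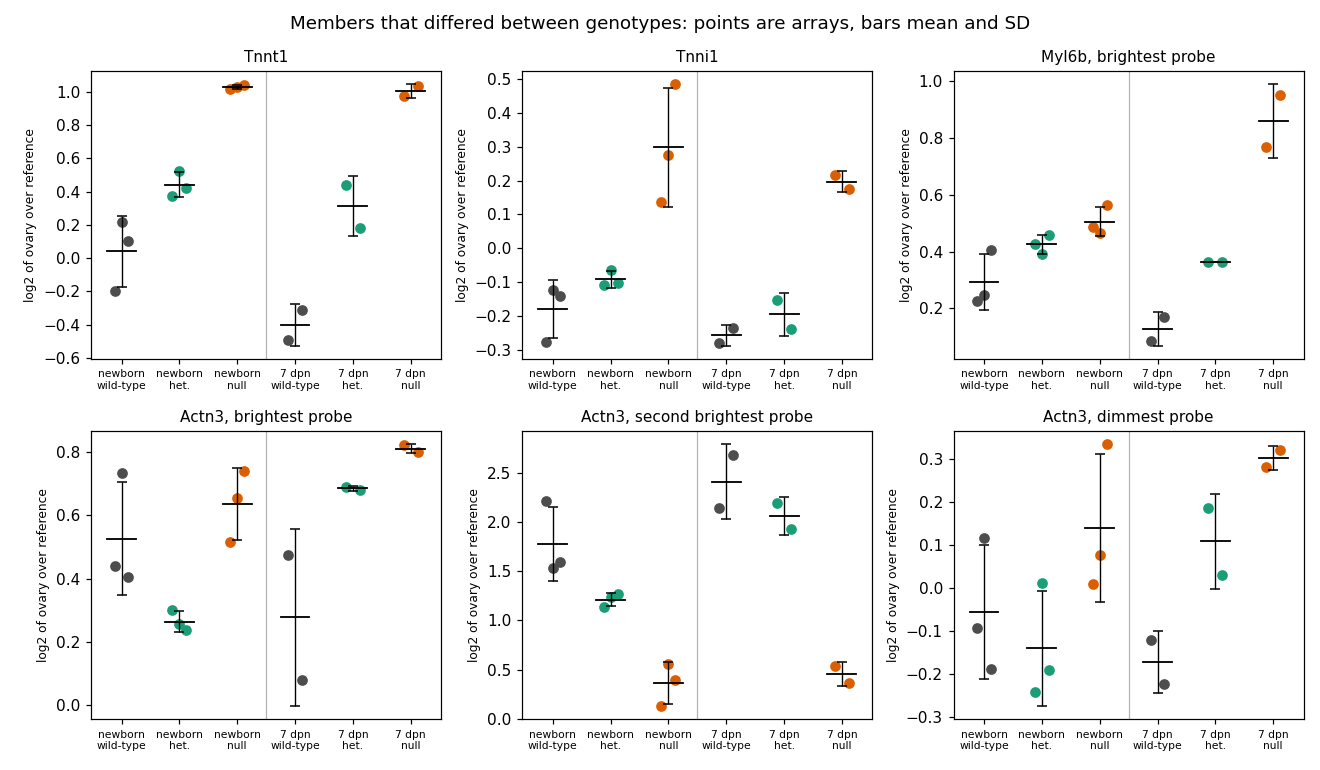
Log2 ratio of ovary over reference (vertical axis) by group (horizontal axis), 1 point per array with the mean and SD of the group, for the brightest probes of *Tnnt1*, *Tnni1* and *Myl6b* and for the 3 probes of *Actn3*. *Tnnt1* rises from wild-type to heterozygous to null at both ages, reaching 1.02 to 1.04 in newborn null ovaries, while the second brightest *Actn3* probe falls to between 0.13 and 0.56 in null ovaries.

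At 7 dpn null against wild-type, 5 of the 49 genes were called higher and 1 lower, while 9.17% of the named genes were called, 4.49% higher and 4.68% lower. The 1 lower, *Tagln2*, was measured on 1 array in each group. Without either null array the count fell to 2, and the share of the named genes to 3.88% without array 1 and 3.1% without array 2. Markers of other cells differed in the same comparison, with 10 of 16 granulosa and theca genes called lower (median -1.26) and 2 of 12 endothelial genes lower (median -0.50). Of 12 surface epithelium genes 3 were higher and 1 lower (median 0.34), and of 15 oocyte genes 3 were lower. Of 11 Sertoli and peritubular genes 2 were higher and 1 lower. In newborn null against wild-type ovaries 2 granulosa and theca genes and 2 oocyte genes were called lower. There 2 Sertoli and peritubular genes and 1 endothelial gene were called higher. The part of these markers in the muscle calls was not tested. *Myl6b*, an essential light chain of non-muscle and slow muscle myosin (chromosome 10, 128494157-128498685), read 0.09 and 0.17 in wild-type, 0.36 and 0.36 in heterozygous and 0.77 and 0.95 in null ovaries. It was 1.66-fold higher in null ovaries (log2 0.73, SE 0.08, limma adjusted p = 0.000330) and also exceeded heterozygous ovaries, by 0.50 (adjusted p = 0.00660). That second call was lost without null array 2 (0.42, adjusted p = 0.0829) or heterozygous array 2 (0.52, adjusted p = 0.0508). In newborns *Myl6b* read 0.23, 0.25 and 0.41 in wild-type, 0.43, 0.39 and 0.46 in heterozygous and 0.49, 0.47 and 0.56 in null ovaries, a null difference of 0.21 (adjusted p = 0.150). Its dimmer probe was not called at 7 dpn (log2 0.50, SE 0.63, adjusted p = 0.813) and read -0.99, 1.80 and -0.21 on the newborn wild-type arrays.

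The probes of *Actn3*, the alpha-actinin of fast fibres, disagreed. The second brightest probe read 2.21, 1.53 and 1.59 in newborn wild-type, 1.14, 1.23 and 1.26 in heterozygous and 0.13, 0.56 and 0.40 in null ovaries. The 7 dpn arrays gave 2.14 and 2.68 in wild-type, 2.20 and 1.93 in heterozygous and 0.54 and 0.37 in null ovaries. It was lower in null ovaries by this probe, 2.67-fold in newborns (log2 -1.42, SE 0.19, limma adjusted p = 0.00406) and 3.89-fold at 7 dpn (log2 -1.96, SE 0.23, adjusted p = 0.000890). Null fell below heterozygous ovaries at 7 dpn as well (-1.61, adjusted p = 0.00530).

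The brightest *Actn3* probe went the other way at 7 dpn. It read 0.48 and 0.08 in wild-type, 0.69 and 0.68 in heterozygous and 0.82 and 0.80 in null ovaries, a difference of 0.53 (SE 0.13, limma adjusted p = 0.0369). This call was lost without wild-type array 2 (0.37, adjusted p = 0.199), without either null array (0.53, adjusted p = 0.170 each) and without several arrays of other groups. The dimmest probe gave 0.47 (adjusted p = 0.0546), and the mean over the 3 probes -0.32 (adjusted p = 0.0989). No direction can be given for the gene as a whole, and which transcript each probe measures was not determined here.

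*Myl12b*, a regulatory light chain of non-muscle myosin, read -0.54 and -0.69 in 7 dpn wild-type, -0.49 and -0.42 in heterozygous and -0.31 and -0.34 in null ovaries, a null difference of 0.29 (limma adjusted p = 0.0241). It was lost without null array 1 (adjusted p = 0.176), null array 2 (0.132) or wild-type array 2 (0.196). *Tagln2*, a widely expressed transgelin, read -1.16 in wild-type and -1.71 in null ovaries on the 1 measured array of each group, so the spread came from other groups and the difference has no replicate. The close relative *Myl12a* was lower in null than heterozygous ovaries by 0.24 (adjusted p = 0.0402), a call kept under 8 of 26 alternatives.

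Other genotype comparisons called few of the genes. Null against heterozygous ovaries gave 1 of 49 in newborns (*Tnnt1*, higher, against 0.629% of the named genes, 0.343% higher). At 7 dpn it gave 3, *Tnnt1* and *Myl6b* higher and *Myl12a* lower, against 3.11% (1.49% higher and 1.63% lower). That count was 1 without null array 1 (against 1.28%), and 0 without null array 2 (0.858%) or heterozygous array 2 (1.17%). Heterozygous against wild-type ovaries at 7 dpn gave 0 by limma, against 0.0898%, with 10 at an unadjusted p under 0.05 (1486 of the 12244 named genes), and 1 was called without newborn wild-type array 1 (against 0.637%) or without arrays 2 and 3 (0.58%). The difference of the null effects between ages gave 0, against 0.449%, with 7 at an unadjusted p under 0.05 (1824 of the 12244 named genes). Without newborn wild-type array 1 that count was 7, against 5.1% of the named genes, and without newborn null array 1 it was 1, against 0.466%. Of the smooth muscle genes, 0 of 5 were called between genotypes at either age.

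Of the 5 smooth muscle genes 3, 4 and 4 were called higher at 7 dpn than at birth in wild-type, heterozygous and null ovaries, against 8.56%, 6.39% and 3.46% of the named genes. *Actg2*, the enteric smooth muscle actin (chromosome 6, 83512909-83536251), read -0.36, -0.34 and -0.67 in newborn wild-type ovaries and 1.18 and 0.91 at 7 dpn. Newborn heterozygous arrays lay at -0.48, -0.60 and -0.57 and 7 dpn ones at 1.55 and 1.10. In null ovaries it read -0.69, -0.63 and -0.72 and then 1.14 on the 1 array that measured it. The ages did not overlap. The rise was 2.83-fold in wild-type (log2 1.50, SE 0.14, limma adjusted p = 0.000683), 3.66-fold in heterozygous (log2 1.87, adjusted p = 0.000201) and 3.54-fold in null ovaries (log2 1.83, adjusted p = 0.00174), where the lone 7 dpn array was assumed to vary like the other groups. The dimmer *Actg2* probe rose by 1.97, 2.86 and 2.64.

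*Cnn1*, the calponin of differentiated smooth muscle, read 0.57 on each newborn wild-type array, 0.53 to 0.70 in heterozygous and 0.44 to 0.61 in null newborns. The 7 dpn arrays gave 1.85 and 1.31 in wild-type, 1.83 and 1.34 in heterozygous and 1.34 and 1.50 in null ovaries. The rise was 1.01 in wild-type (limma adjusted p = 0.00410), 0.98 in heterozygous (adjusted p = 0.00415) and 0.89 in null ovaries (adjusted p = 0.0148). *Tagln*, an actin-binding protein of smooth muscle (chromosome 9, 45929628-45936058), rose by 0.75 (adjusted p = 0.00636), 0.92 (adjusted p = 0.00225) and 0.80 (adjusted p = 0.0109). In null ovaries both calls were lost without either 7 dpn null array (*Cnn1* 0.96 and 0.81, *Tagln* 0.87 and 0.72). The wild-type call of *Tagln* was lost without 7 dpn wild-type array 1 (0.63, adjusted p = 0.0532). Without newborn wild-type arrays 2 and 3 the wild-type rise was 0.98 for *Cnn1* (adjusted p = 0.106) and 0.78 for *Tagln* (adjusted p = 0.0974).

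*Des*, the intermediate filament of all muscle, also had every 7 dpn array above every newborn array, from 0.09 to 0.73 against -0.84 to 0.05, and was not called (0.54, 0.90 and 0.57 in wild-type, heterozygous and null ovaries, adjusted p 0.0509 to 0.30). *Lmod1*, which nucleates smooth muscle actin filaments, was well above background on 2 of 15 arrays only. It was called higher at 7 dpn in heterozygous (adjusted p = 0.0151) and null ovaries (adjusted p = 0.0441), by at least 1.12-fold and at least 1.09-fold, but the direction turned with the authors' series values (-0.17 and -0.12). The heterozygous call held under 18 of 25 alternatives and the null call under 8, and leaving out any of 4 and of 11 single arrays ended them. Such bounds compare the brighter group with the background floor of the dimmer one.

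**Figure D5:**
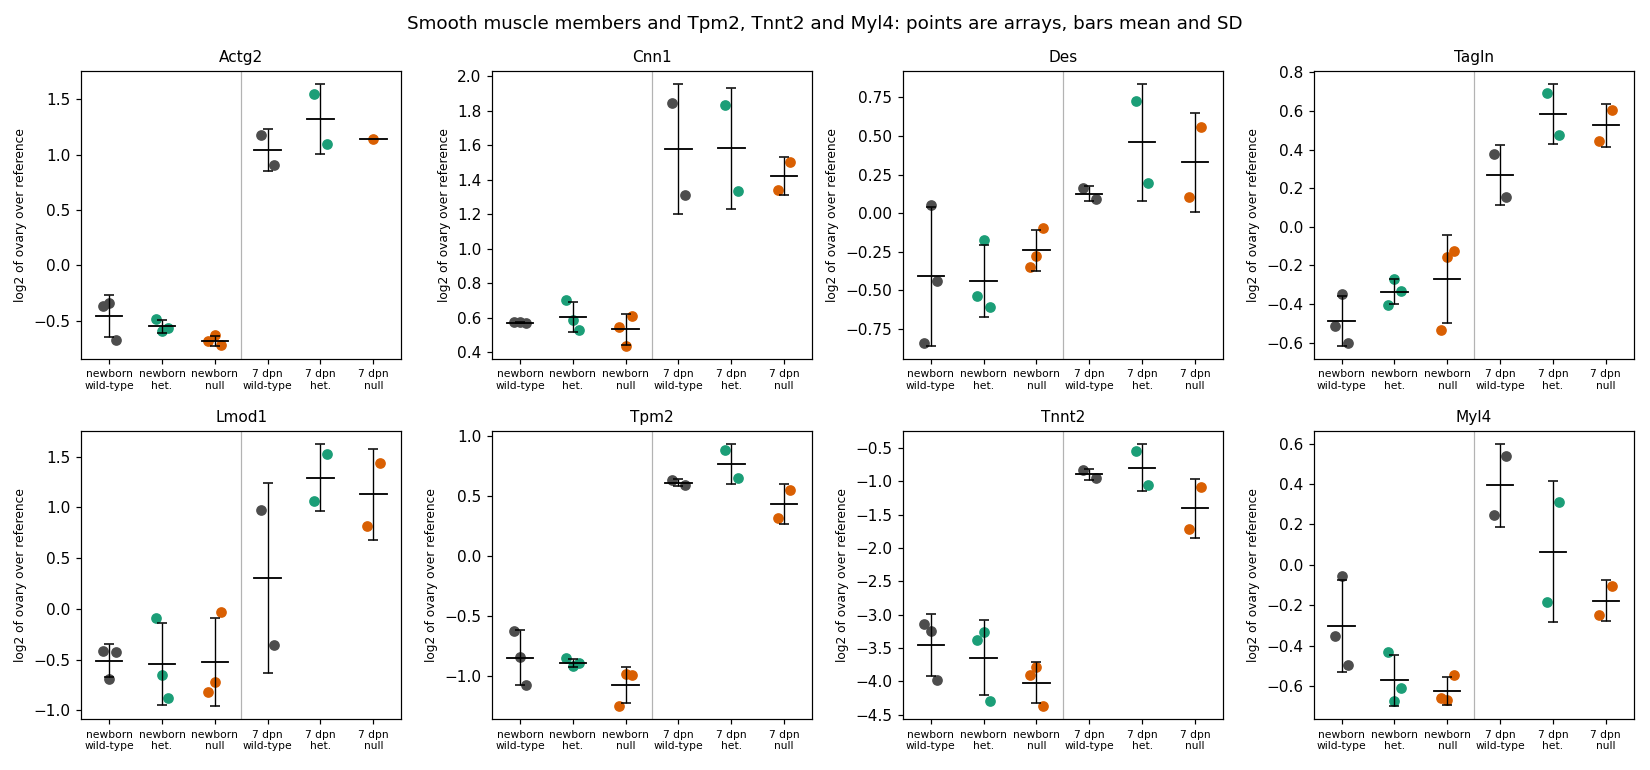
Log2 ratio of ovary over reference (vertical axis) by group (horizontal axis), 1 point per array with the mean and SD of the group, for *Actg2*, *Cnn1*, *Des*, *Tagln*, *Lmod1*, *Tpm2*, *Tnnt2* and *Myl4*. *Actg2* lies between -0.72 and -0.34 in all newborn groups and between 0.91 and 1.55 in all 7 dpn groups.

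*Tpm2* and *Tnnt2* of the sarcomere genes rose with age too. *Tpm2*, a tropomyosin of smooth and slow muscle (chromosome 4, 43513726-43523583), read -0.62, -0.84 and -1.07 in newborn wild-type, -0.85, -0.92 and -0.89 in heterozygous and -1.25, -0.98 and -0.99 in null ovaries. At 7 dpn it read 0.63 and 0.59, 0.88 and 0.65, and 0.32 and 0.55 in the same order. The rise was 2.74-fold in wild-type (log2 1.45, SE 0.13, limma adjusted p = 0.000431), 3.14-fold in heterozygous (adjusted p = 0.000201) and 2.84-fold in null ovaries (adjusted p = 0.000705), and the dimmer probe rose by 1.15, 1.36 and 1.19.

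*Tnnt2*, the tropomyosin-binding subunit of cardiac troponin (chromosome 1, 135836315-135852268), was well above background on all 6 of the 7 dpn arrays and on 1 of the 9 newborn arrays. At 7 dpn it read -0.83 and -0.95 in wild-type, -0.54 and -1.05 in heterozygous and -1.71 and -1.09 in null ovaries. Newborn wild-type array 1 read -3.14, and the other newborn arrays, not well above background, from -4.37 to -3.24. The rise was called in wild-type (kept under 24 of 26 alternatives), heterozygous (limma adjusted p = 0.00116) and null ovaries (adjusted p = 0.00431). Its size rested on newborn values that were mostly at background. With a normexp background correction the differences were 0.86 in wild-type, 0.81 in heterozygous and 0.69 in null ovaries on the log2 scale. The null call was lost without 7 dpn null array 2 (2.31, adjusted p = 0.0748).

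By count, 8 of the 49 genes were called higher and 1 lower at 7 dpn in wild-type ovaries, against 14.1% of the named genes (8.56% higher and 5.51% lower). In heterozygous ovaries 9 were higher and 0 lower, against 11.5% (6.39% higher), and in null ovaries 9 were higher and 0 lower, against 5.28% (3.46% higher). Every 7 dpn array exceeded every newborn array for 8 genes, against 3.24% of the named genes. They were *Actg2*, *Cnn1*, *Des* and *Tagln* of the 5 smooth muscle genes, *Tpm2* and *Tnnt2* of the sarcomere, and *Cnn3* and *Myl6* of the genes used by most cells. The median rise of the 5 smooth muscle genes was 0.82, 0.98 and 0.89 in wild-type, heterozygous and null ovaries, and that of all 49 was -0.05, 0.05 and 0.05.

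With only the wild-type arrays fitted, the wild-type calls of *Actg2*, *Tpm2* and *Tnnt2* were lost (limma adjusted p = 0.0975 each). The wild-type count also turned on single arrays. It was 20 (9 higher, 11 lower) without newborn wild-type array 1, where 23.7% of the named genes were called (13.6% higher and 10.1% lower). It was 2 (*Tpm2* and *Actg2*) without arrays 2 and 3, against 1.02%, and 5 without 7 dpn wild-type array 2, against 6.18%. The 11 lower genes included *Acta1* (-4.68, limma adjusted p = 0.000948) and *Tnnc2* (-2.73, adjusted p = 0.00127), which differed by -3.09 (adjusted p = 0.150) and -1.83 (adjusted p = 0.140) with all arrays. In null ovaries the count was 4 without 7 dpn null array 1 (against 1.13%) and 1 without null array 2 (0.294%), and in heterozygous ovaries 5 without 7 dpn heterozygous array 2 (4.76%).

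Light chains of the heart rose in part. *Myl4*, the atrial essential light chain, read -0.35, -0.05 and -0.50 in newborn wild-type ovaries and 0.25 and 0.54 at 7 dpn, a rise of 0.70 (limma adjusted p = 0.0211), and it rose by 0.64 in heterozygous ovaries (adjusted p = 0.0335). *Myl3*, the ventricular and slow essential light chain, read -1.09, -1.31 and -1.39 and then -0.82 and -0.69 in wild-type ovaries, a rise of 0.51 (adjusted p = 0.00574). Without 7 dpn wild-type array 2 the wild-type rise was 0.55 for *Myl4* (adjusted p = 0.180) and 0.44 for *Myl3* (adjusted p = 0.0528), and without newborn wild-type array 3 that of *Myl4* was 0.60 (adjusted p = 0.0749). The heavy chain *Myh7* was called in heterozygous ovaries, at 0.48, 0.73 and 0.37 in newborns and 1.43 and 1.51 at 7 dpn (0.95, adjusted p = 0.0273), but its dimmer probe was not. That call was lost without newborn heterozygous array 1 or 3 or either 7 dpn heterozygous array (adjusted p 0.0727 to 0.152), and the heterozygous call of *Myl4* without any of 8 single arrays. *Tnnt1* was the 1 gene called lower in wild-type ovaries (-0.44, adjusted p = 0.0334), a call lost without newborn wild-type array 2 (-0.37, adjusted p = 0.116), array 3 (-0.42, adjusted p = 0.0920), either 7 dpn wild-type array or either 7 dpn null array.

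Among the genes used by most cells, *Myl6*, the essential light chain of smooth and non-muscle myosin, rose by 0.35 in heterozygous (limma adjusted p = 0.0165) and 0.33 in null ovaries (adjusted p = 0.0416). *Cnn3*, a calponin of non-muscle cells, rose by 0.26 in null ovaries (adjusted p = 0.0204), from 0.31, 0.43 and 0.33 to 0.66 and 0.58. *Myl6b* rose by 0.36 in null ovaries (adjusted p = 0.0215). In null ovaries the calls of *Myl6* and *Cnn3* were lost without either 7 dpn null array (*Myl6* 0.38 and 0.26, *Cnn3* 0.22 and 0.31), and leaving out any of 8 single arrays ended that of *Myl6*, any of 3 that of *Cnn3* and any of 2 that of *Myl6b*, and that of *Myl6* in heterozygous ovaries without 7 dpn heterozygous array 2 (0.27, adjusted p = 0.154). *Tagln2*, counted as higher with age in wild-type ovaries, rested on the same lone 7 dpn array, against -1.80 to -1.73 in newborns. The cytoplasmic actins and the non-muscle heavy chains *Myh9* and *Myh10* were not called in any comparison. Over the 15 arrays *Actg1*, the cytoplasmic gamma-actin, lay between -0.38 and 0.52, *Myh9* between -0.91 and -0.31, and *Actn4*, the alpha-actinin of non-muscle cells, between -0.17 and 0.21. *Cnn2* lay between -0.88 and 0.03, *Myh14* between -0.79 and 0.05 and *Tpm3* between -0.35 and 0.18, and none of these 3 was called by its brightest probe. *Actb* was saturated in the ovary channel on 5 arrays, so its ratios there are uncertain.

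Smooth muscle and pericyte genes outside the 49 (16 of 21 on the arrays) gave 5 called higher at 7 dpn in wild-type, 6 in heterozygous and 1 in null ovaries, with 0 lower and medians of 0.40, 0.31 and 0.15. *Mylk*, the kinase that starts smooth muscle contraction, rose by 1.27, 1.72 and 1.01 in that order. *Smtn*, a smooth muscle actin-binding protein, read -0.68, -0.70 and -0.86 in newborn wild-type ovaries and 0.14 and 0.21 at 7 dpn. The adipose mean given above also differed between these ages, at 0.08 to 0.24 on newborn arrays other than wild-type array 1 and 1.15 to 1.71 at 7 dpn. Of 13 adipose genes 1, 3 and 5 were called higher at 7 dpn in wild-type, heterozygous and null ovaries. The shares of all named genes called higher were 8.56%, 6.39% and 3.46%. Granulosa and theca genes gave 9, 6 and 0 of 16 called higher in that order, with medians of 0.71, 0.52 and 0.13. The part of these markers in the rise of the smooth muscle genes was not tested. Newborn wild-type array 1, with an adipose mean of 2.09, had a smooth muscle mean of -0.31, and the newborn range was -0.37 to -0.07.

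Of the muscle genes outside the 49, *Cdh15*, *Pax3*, *Mybph*, *Pln* and *Jsrp1* were called between null and wild-type ovaries at 7 dpn. In that comparison 9.17% of the named genes were called, and 2.5% in newborn null against wild-type ovaries. *Cdh15*, the cadherin of muscle precursors, read -0.21, -0.02 and -0.01 in newborn wild-type, -0.28, -0.19 and -0.19 in heterozygous and 0.46, 0.38 and 0.29 in null ovaries. The 7 dpn arrays gave -0.14 and -0.17, -0.01 and -0.07, and 1.17 and 1.04. Null exceeded wild-type ovaries by 0.46 in newborns (limma adjusted p = 0.00648) and by 1.26 at 7 dpn (adjusted p = 2.71e-05). *Pln*, the phospholamban that restrains the calcium pump of heart and smooth muscle, read 4.05, 1.38 and 1.80 in newborn wild-type, 2.14, 1.65 and 1.89 in heterozygous and -0.42, -0.57 and 0.24 in null ovaries, of which newborn wild-type array 2 and null arrays 1 and 2 were not well above background. Its 7 dpn values were 4.80 and 4.06 in wild-type, 1.82 and 2.44 in heterozygous and -0.36 and -0.47 in null ovaries. It stood well above background on 1 of the newborn null arrays. In newborns *Pln* was the 1 cardiac gene called, lower in null than wild-type ovaries (log2 -2.66, SE 0.56, limma adjusted p = 0.0412). The size of that difference rested on null values mostly at background. At 7 dpn the null, not well above background on either array, was at least 8.94-fold lower (adjusted p = 0.00216). Of the 15 genes of muscle precursors 1 was called higher in newborn null against wild-type ovaries and 2 at 7 dpn, *Cdh15* and the precursor factor *Pax3* (0.57, adjusted p = 0.0278). Of the 32 skeletal genes outside the 49, 0 were called in newborn null against wild-type ovaries and 1 in each direction at 7 dpn, *Mybph*, a myosin-binding protein, at 0.26 (adjusted p = 0.0228) and *Jsrp1*, a protein of the junctional sarcoplasmic reticulum, at -0.95 (adjusted p = 0.00269), and of the 11 cardiac genes *Pln* was the 1 called at 7 dpn.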

How the data were processed

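Ovary RNA was labelled with Cy3 and reference RNA with Cy5, without a dye swap. Per the labels, Agilent Feature Extraction made the scanner output. The authors deposited raw and processed intensity per spot and channel, with background subtracted and dyes balanced in the processed values. The authors' log10 ratios per spot were not used. The authors also deposited series values of unstated scale, which followed ovary intensity and served as an alternative after conversion to log2.

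Here, log2 ratios of processed ovary over reference intensity were computed. Control spots and spots flagged as outliers by the scanner software were dropped, spots of a probe were averaged, and each array was normalized by loess (span 0.01) against the mean of all 15 arrays. Group means were fitted with limma 3.58.1 in R 4.3.3 over all 15 arrays, with Benjamini-Hochberg adjustment over 40990 probes and a threshold of 0.05. The fit was tested on simulated data. Symbols came from a RefSeq table, which named 15294 of 20657 probes carrying a RefSeq accession.

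The label for age reads birth in all samples, while titles and the development stage separate newborn from 7 dpn, which was used. The methods and the labels differ in the number of 7 dpn samples, and the labels were followed.

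The genes, their roles and the marker lists were chosen with earlier results of these data known. By rule, values were given for members called within an age, for the defining members of each role and for those with the widest spread in newborn wild-type ovaries, and other genes were named only from the marker lists. Members called between ages, or raised on a pair of newborn wild-type arrays, were added after their values were seen. Precision was limited by the number of arrays, 2 or 3 a group. Alternatives were normexp correction (offset 50), a loess span of 0.3, median centring, a filter on dim probes, the authors' series values, the ovary channel alone, a replicate block, the arrays of the age or genotype compared only, the mean over a gene's probes, and each array left out. Loess on the virtual array value alone was added after seeing the data, as was a crossed replicate block.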

Additional observations from a re-analysis of the deposited data

Results flagged for a closer look

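*Cdh15*, the cadherin of muscle precursors and not 1 of the 49 genes, had a null effect that differed between the ages. Null exceeded wild-type ovaries by 0.46 in newborns and by 1.26 at 7 dpn on the log2 scale, higher on every null array at both ages, and the difference of 0.81 passed the test in the fit over all probes (limma, adjusted p = 0.0249).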

How the results depend on the processing

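Of 39 differences of single genes examined, 36 kept their direction under every alternative and 8 were called under every one. *Actn3* at 7 dpn (null against wild-type) turned to -0.32 with the mean over its probes, and *Lmod1*, above background on few arrays, turned to -0.17 (heterozygous) and -0.12 (null) between the ages with the authors' series values. The cause was not tested.

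The counts of the 49 genes called in newborns were 2 (null against wild-type), 0 (heterozygous against wild-type) and 1 (null against heterozygous). They were 6, 0 and 3 at 7 dpn, 9 between ages in each genotype and 0 for the difference of null effects. With the ovary channel alone they fell to 1 for newborn null against wild-type, 0 for newborn null against heterozygous, 2 and 0 for the same at 7 dpn, and 4, 5 and 4 between ages in wild-type, heterozygous and null ovaries. With only the arrays of the age or genotype compared, fewer arrays estimated the spread, and the same counts were 1, 0, 3 and 0, with 0 between ages in wild-type and 4 in null ovaries. Newborn null against heterozygous gave 3 with normexp, 2 with the mean over probes, and 0 with median centring, the series values and loess on the virtual array value alone. At 7 dpn null against heterozygous gave 1 with the mean over probes, and heterozygous against wild-type 1 with normexp, the series values or without newborn wild-type replicates 2 and 3. The difference of null effects gave 1 with normexp, median centring and the series values. Without newborn wild-type replicates 2 and 3 the wild-type age count was 2.

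With 1 array left out in turn, counts in the same order ranged from 2 to 10, 0 to 6 and 0 to 1 in newborns, 2 to 7, 0 to 1 and 0 to 4 at 7 dpn, 5 to 20, 5 to 11 and 1 to 9 between ages in wild-type, heterozygous and null ovaries, and 0 to 7 for the difference of null effects. A group left with 1 array was assumed to vary like the others.

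Deviations of samples with the same replicate number had r from -0.170 to 0.147 in newborns, against -0.173 to 0.213 for other numbers. At 7 dpn r was -0.129 to -0.014. With 2 arrays a group these values mirror those of other numbers, so this check cannot show whether the numbers pair the samples. With the replicate block, counts were 0 for newborn null against heterozygous, 3 for 7 dpn null against wild-type and 5, 5 and 2 between ages, and the crossed pairing at 7 dpn gave 0 for heterozygous against wild-type. A batch block could not be run, since extraction day follows age and every slide held 1 array. Probes near background (*Tnnt2*, *Lmod1*, *Pln*) are limited by signal over background.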
